A study of Mus musculus with 18 samples.

Results

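The glutathione S-transferases described here are 10 genes of mouse liver, *Gsta3*, *Gsta4*, *Gstm1*, *Gstm2*, *Gstm3*, *Gstm4*, *Gstp1*, *Gstt1*, *Gstt3* and *Mgst1*, which were taken by symbol from the 22524 genes counted in each library. Liver RNA was sequenced from 10 female mice that carry the Rps2-A226Y mutation (A226Y) and 8 female controls (WT), with 1 library per mouse, all on the C57BL/6 strain and 15 months old. The A226Y allele is a heterozygous knock-in that replaces an alanine of the ribosomal protein RPS2 and lowers the accuracy of translation. It is released by CMV-Cre, which removes a loxP-flanked stop cassette, and both genotypes carried this Cre recombinase. According to the methods, recombination is incomplete, so that an A226Y liver is a mosaic in which some cells keep the silenced allele. The question was which of these detoxification genes differed in RNA level between the genotypes.

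Glutathione S-transferases join the tripeptide glutathione to electrophilic compounds, such as drug metabolites and products of lipid peroxidation, which makes them soluble and ready for export. The soluble enzymes fall into classes named by Greek letters (alpha, mu, pi, theta and others) that often lie in gene clusters, whereas the microsomal enzymes, such as *Mgst1*, are membrane proteins of a separate family. Hepatocytes express many of them, and several are known to be raised by foreign compounds through the transcription factors NRF2, AhR, CAR and PXR.

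Total counts lay between 23850565 and 62126131 in A226Y and between 25869192 and 34918732 in WT. Hepatocyte markers summed to 93480 to 181500 CPM in WT and to 75240 to 150900 CPM in A226Y. CPM are a gene's reads relative to the TMM-adjusted total of its library. *Rps2* itself was at 114 ± 13.03 CPM (SD, n = 8) in WT and 68.6 ± 13.3 CPM (SD, n = 10) in A226Y, with no overlap between the groups. A226Y mouse 29 and WT mouse 33, numbered as in the labels, stood apart from the others on the second principal component, which held 19.1% of the variance. Leaving both out kept all 4 calls given below. On the first component, which held 25.1%, the A226Y mice lay between -26.47 and -0.38. WT mouse 6 lay among them at -11.49, and the other WT mice lay between 4.69 and 38.96.

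Of the 10 genes, which all passed the filter on low counts, 4 differed between the genotypes: *Gstt1*, *Gsta3* and *Mgst1* fell and *Gstm4* rose in A226Y. The test was the quasi-likelihood test of edgeR over 13353 genes, in which a gene was called when its adjusted p-value was below 0.05. Of the 13353 genes, 14.3% were called (7.27% higher and 7.03% lower in A226Y), against 1 of 10 higher and 3 of 10 lower among these genes. The median log2 fold change of the 10 was 0.08, and that of all tested genes was -0.004. For each of the 10 genes the values of the genotypes overlapped, and the share of all tested genes with such an overlap was not counted. In bulk liver RNA, a change in the RNA of each cell and a change in the number of cells that express a gene cannot be told apart.

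**Figure D1:**
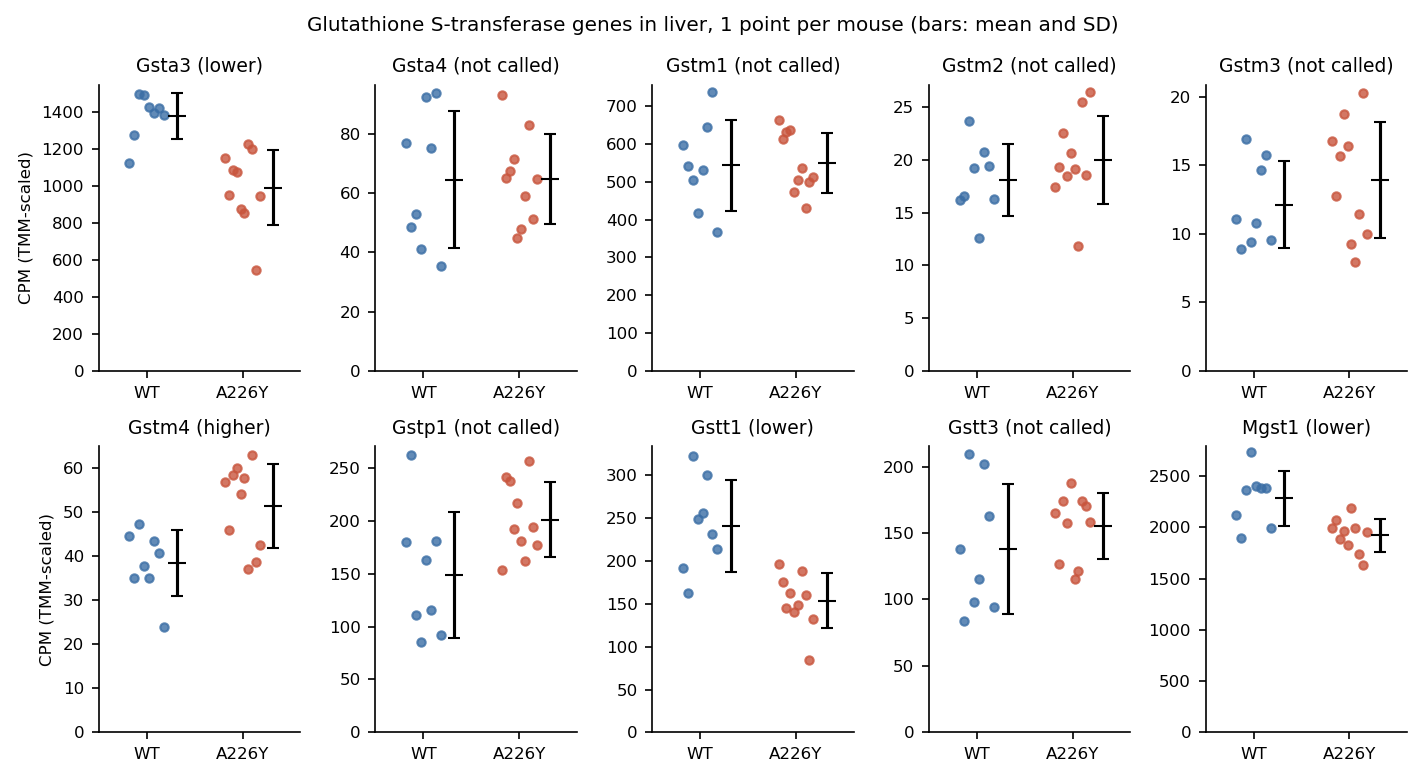
Each panel plots 1 gene, with CPM on a linear axis from 0, 1 point per mouse (8 WT in blue, 10 A226Y in red) and the mean with its SD in black. All 10 A226Y mice lie below the WT mean for Gsta3, Gstt1 and Mgst1, and 9 of 10 lie above it for Gstm4.

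Promoter windows were read for the genes that the results turn on. RefSeq (GRCm38.p6) gave a window of 250 bases before to 50 bases after a transcription start for 9 of the 10 genes, 13 windows in all. *Gsta4* had no entry. The 250 bases before the start are shown for *Gsta3* and for *Gstt1* and its neighbour *Gstt3*, which differed in response, in lower case with motif matches in capitals. None of these bases lie in an annotated exon of the same gene. The *Gstt1* window lies inside the annotated gene, which runs to 75798584, so it precedes a start that is not the outermost.
Gsta3 (chr1:21240335-21240584, + strand): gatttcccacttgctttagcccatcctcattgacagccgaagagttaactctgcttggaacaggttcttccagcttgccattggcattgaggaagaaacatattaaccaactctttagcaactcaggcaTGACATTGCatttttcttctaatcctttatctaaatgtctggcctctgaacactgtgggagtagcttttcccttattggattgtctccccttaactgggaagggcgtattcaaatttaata
Gstt1 (chr10:75797732-75797981, - strand): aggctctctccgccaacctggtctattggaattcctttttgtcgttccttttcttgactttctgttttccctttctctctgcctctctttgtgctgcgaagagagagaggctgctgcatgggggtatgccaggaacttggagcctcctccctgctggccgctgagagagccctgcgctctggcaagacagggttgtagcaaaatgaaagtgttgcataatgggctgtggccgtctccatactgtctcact
Gstt3 (chr10:75781423-75781672, - strand): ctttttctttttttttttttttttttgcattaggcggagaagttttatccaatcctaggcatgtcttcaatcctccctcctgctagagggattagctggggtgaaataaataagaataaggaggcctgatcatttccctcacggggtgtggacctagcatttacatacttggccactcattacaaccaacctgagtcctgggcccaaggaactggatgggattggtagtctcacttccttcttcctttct

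A set of 3 motifs was searched on both strands. The core of the antioxidant response element, TGACNNNGC, which NRF2 binds, stood in 2 of the 13 windows against 12.4% of all 32851 RefSeq windows. One of these is the capital stretch at position -121 of *Gsta3*, and the other lies at -56 of the first *Mgst1* window, on the reverse strand and inside an exon of a longer *Mgst1* transcript. The AhR core, GCGTG, stood in 3 of the 13 windows, of *Gstm1* (both windows) and *Gstp1*, against 32.4% of all windows. The *Gstm1* windows overlap and hold the same match, so these are 2 distinct sites. The STAT5 motif, TTCNNNGAA, stood in 1 window, the second of *Mgst1*, against 8.3%. The windows of *Gstt1*, *Gstt3*, *Gstm2*, *Gstm3* and *Gstm4* held no match to any of the 3.

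Levels between genes were compared as CPM per kb of merged exons. In WT, *Mgst1* was highest with 1135 ± 134 CPM per kb (SD, n = 8), and its range did not overlap that of any other of the 10 genes. *Gstm1* followed with 369 ± 81.0 and *Gsta3* with 317 ± 28.4 CPM per kb, and these neighbours overlapped between mice. *Gstt1* stood at 158 ± 35.0 and *Gstp1* at 96.0 ± 38.3 CPM per kb, which overlapped too, while the WT ranges of *Gsta3* and *Gstt1* did not. *Gsta4* (51.0 ± 18.1), *Gstt3* (35.9 ± 12.7) and *Gstm4* (22.6 ± 4.34 CPM per kb) came next, each overlapping its neighbour. *Gstm2* with 10.8 ± 2.02 and *Gstm3* with 9.26 ± 2.41 CPM per kb were lowest and overlapped. In A226Y the order was the same except that *Gstp1*, at 130 ± 22.8 CPM per kb (SD, n = 10), stood above *Gstt1*, at 101 ± 20.9 CPM per kb, with overlapping ranges. With the length of the principal transcript in place of merged exons, a choice made after seeing the data, *Gsta3* ranked above *Gstm1* and *Gstt3* above *Gsta4*. On that scale *Gsta3* was at 946 CPM per kb in WT (range 771 to 1027) and *Gstm1* at 421 CPM per kb (range 285 to 573), with no overlap. *Mgst1* gave 51.5% ± 3.63 (SD, n = 8) of the summed CPM per kb of the 10 genes in WT and 49.5% ± 2.87 (SD, n = 10) in A226Y.

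**Figure D2:**
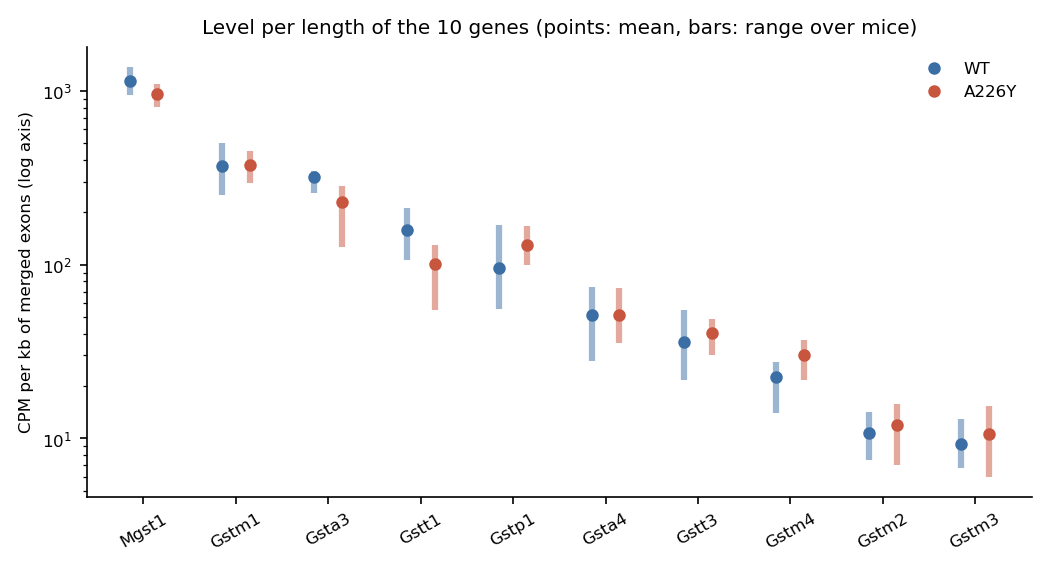
The level of each gene is drawn as CPM per kb of merged exons on a log axis, with the mean as a point and the range over mice as a bar (8 WT in blue, 10 A226Y in red). Mgst1 is highest in both genotypes (1135 and 956 CPM per kb), and Gstt1 and Gstp1 change places between them.

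The alpha class was represented by *Gsta3* and *Gsta4*. *Gsta3* (chromosome 1, 21240589 to 21265661, GRCm38), an alpha enzyme that is abundant in mouse liver and detoxifies the activated form of aflatoxin B1, ranged from 1124 over a median of 1411 to 1497 CPM in WT and from 546 over 1013 to 1227 CPM in A226Y. All 10 A226Y mice lay below the WT mean and 7 below every WT mouse, and the lowest was mouse 29. The means were 1378 ± 123 CPM (SD, n = 8) and 991 ± 204 CPM (SD, n = 10), a log2 fold change of -0.48 (SE 0.12) with an adjusted p of 0.0127 in edgeR. An exact permutation test of log2 CPM between the genotypes gave an unadjusted two-sided p of 0.00048. *Gsta4* (chromosome 9, 78182774 to 78209349), which conjugates the lipid peroxidation product 4-hydroxynonenal, ranged from 35.4 over 64.2 to 93.8 CPM in WT and from 44.8 over 64.9 to 93.2 CPM in A226Y. These ranges overlapped almost wholly, and the log2 fold change was 0.00 with a 95% interval of -0.36 to 0.37 (adjusted p = 0.992, edgeR).

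The theta class held a pair of neighbouring genes that differed in response. *Gstt1* (chromosome 10, 75783813 to 75798584, minus strand), known for conjugating small halogenated compounds, ranged from 162 over 240 to 323 CPM in WT and from 84.3 over 155 to 197 CPM in A226Y. All 10 A226Y mice lay below the WT mean and 6 below every WT mouse. Its mean fell from 241 ± 53.5 CPM (SD, n = 8) to 154 ± 31.98 CPM (SD, n = 10), with a log2 fold change of -0.65 (SE 0.14), an edgeR adjusted p of 0.00645 and an unadjusted exact permutation p of 0.000526. *Gstt3* (75774115 to 75781414), the next gene on the same strand, 2398 bases away, ranged from 83.7 over 127 to 209 CPM in WT and from 116 over 162 to 188 CPM in A226Y. The A226Y mice lay within the WT range, and the log2 fold change was 0.17 (95% interval -0.16 to 0.49, edgeR adjusted p = 0.523).

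Within each mouse, the log2 ratio of *Gstt1* to *Gstt3* was between 0.47 and 1.34 in WT and between -1.01 and 0.63 in A226Y, where each of the 10 mice lay below the mean of WT. The ratio was lower by 0.88 in log2 units, with an exact permutation p of 0.000571 and an adjusted p of 0.00457 over the 8 pairs of genes of 1 class. These ratios were examined after the values of the genes had been seen. *Gsta3* over *Gsta4* (difference -0.56, adjusted permutation p = 0.0434, exact) and *Gstm1* over *Gstm4* (difference -0.39, adjusted permutation p = 0.0434, exact) also passed, and the other 5 pairs, all of the mu class, had adjusted p-values of at least 0.136 in the exact permutation test. *Gstt3* shares 12.2% of its 50-base stretches, the read length, with *Gm20441*, a counted gene that overlaps it, whereas *Gstt1* shares none with another counted gene.

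**Figure D3:**
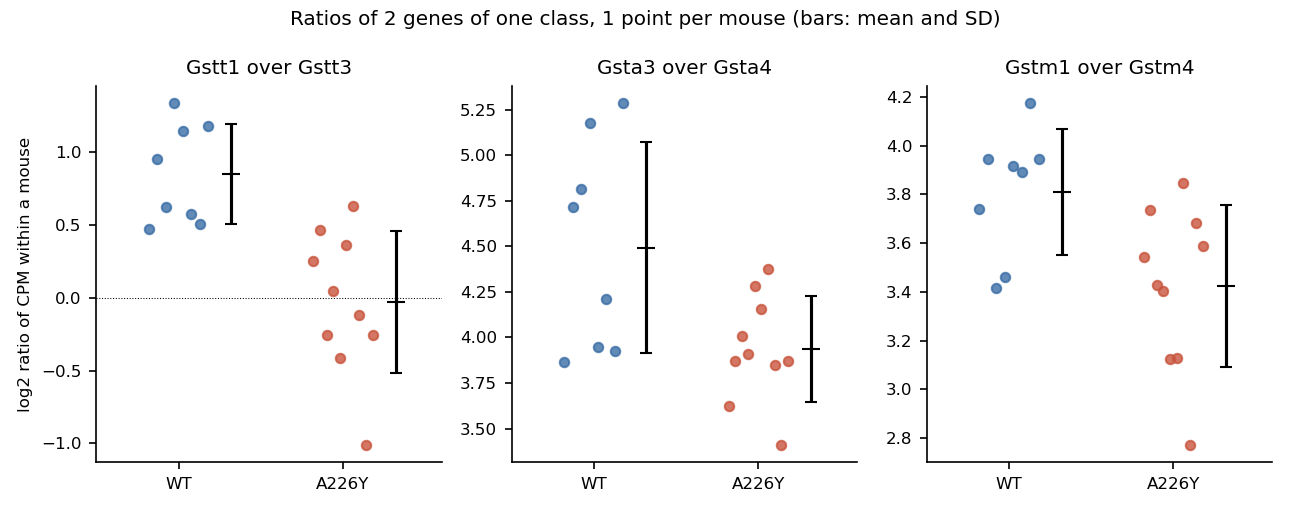
The log2 ratio of the CPM of 2 genes of 1 class is plotted per mouse for the 3 pairs that passed (8 WT in blue, 10 A226Y in red; black, mean and SD). The Gstt1 to Gstt3 ratio is above 0 in all 8 WT mice and spans 0 in A226Y, from -1.01 to 0.63.

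The mu class genes lie in a cluster of 7 genes over 149074 bases of chromosome 3. Of the 4 described here, *Gstm4* rose. *Gstm4* (108040408 to 108044894) ranged from 23.9 over 39.3 to 47.3 CPM in WT and from 37.1 over 55.5 to 63.1 CPM in A226Y, and of the 10 A226Y mice 9 exceeded the WT mean and 6 exceeded every WT mouse. The means were 38.5 ± 7.41 CPM (SD, n = 8) and 51.5 ± 9.51 CPM (SD, n = 10), with a log2 fold change of 0.42 (SE 0.13), an edgeR adjusted p of 0.0313 and an unadjusted exact permutation p of 0.00702. The call was narrow: leaving out A226Y mouse 7 or 11 or WT mouse 14 or 21 gave edgeR adjusted p-values of 0.0534, 0.0544, 0.0545 and 0.0595.

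*Gstm1* (108012255 to 108017973), the most abundant mu gene of the 4, ranged from 368 over 536 to 738 CPM in WT and from 431 over 523 to 664 CPM in A226Y. The groups overlapped, and the 95% interval of its log2 fold change ran from -0.22 to 0.25 (estimate 0.02, edgeR adjusted p = 0.935). *Gstm2* (107981702 to 107986453) ranged from 12.6 over 17.9 to 23.7 CPM in WT and from 11.9 over 19.2 to 26.4 CPM in A226Y, with a log2 fold change of 0.15 (SE 0.13, edgeR adjusted p = 0.483). *Gstm3* (107963696 to 107969283) ranged from 8.90 over 10.97 to 16.9 CPM in WT and from 7.92 over 14.2 to 20.3 CPM in A226Y, with a log2 fold change of 0.20 (SE 0.18, edgeR adjusted p = 0.491). Both overlapped between the groups. Reads cannot be fully assigned between these genes: 15.8% of the 50-base stretches of *Gstm3* and 8.88% of those of *Gstm1* also occur in another counted gene, against none of *Gstm4*. With uncounted genes included, the shares were 28.8% for *Gstm3* and 18.9% for *Gstm1*, and still none for *Gstm4*.

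The pi class gene *Gstp1* (chromosome 19, 4035407 to 4037985), which in mouse liver is known to be higher in males than in females, ranged from 85.7 over 139 to 262 CPM in WT and from 154 over 193 to 257 CPM in A226Y. All 10 A226Y mice lay above the WT mean, which was 149 ± 59.4 CPM (SD, n = 8) against 201 ± 35.3 CPM (SD, n = 10), but WT mouse 6 was above them all. The log2 fold change of 0.44 (SE 0.18) did not pass (edgeR adjusted p = 0.111), with an unadjusted exact permutation p of 0.0205. Without WT mouse 6 it was 0.60 with an edgeR adjusted p of 0.013, without any 1 of the other mice it was between 0.35 and 0.48 and did not pass, and the fit with surrogate variables gave 0.07 (edgeR adjusted p = 0.866). The near-identical *Gstp2* shares stretches with *Gstp1*, of whose 50-base stretches 33.7% occur in another counted gene, and *Gstp2* itself was at 0.620 ± 0.297 CPM in WT (SD, n = 8).

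The microsomal gene *Mgst1* (chromosome 6, 138140316 to 138156755), whose product has transferase and peroxidase activity in membranes, ranged from 1893 over 2370 to 2737 CPM in WT and from 1632 over 1959 to 2189 CPM in A226Y. All 10 A226Y mice lay below the WT mean and 4 below every WT mouse. The means were 2284 ± 269 CPM (SD, n = 8) and 1924 ± 161 CPM (SD, n = 10), a log2 fold change of -0.25 (SE 0.08) with an edgeR adjusted p of 0.0372 and an unadjusted exact permutation p of 0.00306. This was the smallest of the 4 called changes and was lost under several settings: the adjusted p rose to 0.0915 with library size scaling only, to 0.0604 without a filter beyond 1 count, to 0.143 with an offset on transcript length and to between 0.0532 and 0.0843 when any 1 of 10 mice was left out (A226Y mice 7, 11, 15, 23 and 32, WT mice 13, 14, 21, 24 and 28).

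All 4 calls were lost when 4 surrogate variables, estimated from the data, were added as covariates, a setting that left 50 of the 13353 genes called. *Gstt1* then had a log2 fold change of -0.28 (edgeR adjusted p = 0.169), *Gsta3* of -0.40 (adjusted p = 0.0969), *Gstm4* of 0.39 (adjusted p = 0.18) and *Mgst1* of -0.08 (adjusted p = 0.668). Of 11 markers of pericentral hepatocytes, 3 (*Rgn*, *Cyp1a2* and *Lect2*; 27.3%, against 7.03% of all genes) were called lower and 0 higher. Over the whole list 8 log2 fold changes were negative and 3 positive, with a median of -0.08, and the summed level was 9235 to 14870 CPM in WT and 5005 to 11560 CPM in A226Y. Of 9 periportal markers, 1 (*Cdh1*) was called higher and 1 (*Cyp2f2*) lower, 6 log2 fold changes were positive with a list median of 0.15, and 4 (44.4%, against 29.6% of all genes) had an unadjusted edgeR p under 0.05. Their summed level was 6314 ± 864 CPM (SD, n = 8) in WT and 7038 ± 449.5 CPM (SD, n = 10) in A226Y. The part of both lists in the changes of *Gstt1*, *Gsta3* and *Mgst1* was not tested. Of 8 Kupffer cell and macrophage markers, 1 (*Clec4f*) was called lower and 0 higher, 7 log2 fold changes were negative with a list median of -0.43, and 4 (50%, against 29.6% of all genes) had an unadjusted edgeR p under 0.05. Their summed level was 416 to 841 CPM (median 604) in WT and 279 to 1083 CPM (median 377) in A226Y, and their part in the changes was not tested. Of 8 hepatocyte markers, 1 (*Cps1*) was called higher and 1 (*Apoa2*) lower (25%, against 14.3% of all genes). Of 8 stellate cell markers, 2 (*Col1a1* and *Col3a1*; 25%, against 7.03% of all genes) were called lower and 0 higher. Of the lymphocyte, red blood cell and sinusoidal endothelial markers, 0 were called, with list medians of -0.39, -0.46 and 0.02. Their part was not tested either.

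Other marker lists stood beside the *Gstp1* values. Of 6 tested cholangiocyte markers, 0 were called and 1 had an unadjusted edgeR p under 0.05, while all 6 log2 fold changes were positive with a list median of 0.28. The 8 counted genes of the list summed to 12.4 to 26.6 CPM in WT and 13.7 to 30.7 CPM in A226Y. Of 7 tested genes that are higher in male liver, 2 were called higher (*Cyp2d9* and *Mup20*) and 2 lower (*Elovl3* and *Serpina1e*), 57.1% of the list against 14.3% of all genes, with a median of -0.11. The 11 counted genes of that list summed to 81.3 to 1080.0 CPM in WT (median 104) and 79.3 to 198 CPM in A226Y (median 127, above that of WT). Of 11 genes that are higher in female liver, 2 were called lower (*A1bg* and *Cyp3a41b*) and 0 higher, and 10 log2 fold changes were negative, with a median of -0.31 and summed levels of 1835 to 4573 CPM in WT and 1317 to 2794 CPM in A226Y. The part of these markers in the *Gstp1* values was not tested.

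Across mice of 1 genotype, the levels of the 10 genes were compared pair by pair. Of 90 correlations (45 pairs in each genotype), 0 had an adjusted permutation p under 0.05 and 10 had an unadjusted one under 0.05. The strongest was *Gstm3* with *Gstt3* in WT (Pearson r = 0.957, permutation p = 0.000595, adjusted 0.0536; Spearman rho = 0.952, permutation p = 0.00114, adjusted 0.103; n = 8, exact; r = 0.988 without the 2 mice farthest from the median of *Gstm3*). In A226Y the same pair had r = 0.686 (permutation p = 0.0329, adjusted 0.413, n = 10) and rho = 0.479 (permutation p = 0.166, adjusted 0.511). There r was 0.288 without the 2 mice farthest from the median of *Gstm3*. Leaving out such mice narrows the range of *Gstm3* and can lower r by itself. The points share library depth and RNA source.

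Beyond the 10 genes, 21 further transferase genes were counted and 15 tested, of which 2 fell and 0 rose. The share called, 13.3%, was near the 14.3% of all genes. Their median log2 fold change was -0.06, and 5 of the 15 (33.3%) had an unadjusted edgeR p under 0.05, as did 29.6% of all genes. *Mgst3*, a second microsomal enzyme, fell from 27.99 ± 7.38 CPM (SD, n = 8) to 16.6 ± 4.17 CPM (SD, n = 10), a log2 fold change of -0.75 (SE 0.17, edgeR adjusted p = 0.0068). *Gstm6*, the mu gene next to *Gstm3* in the cluster, fell from 35.0 ± 5.72 CPM (SD, n = 8) to 25.2 ± 3.17 CPM (SD, n = 10), a log2 fold change of -0.47 (SE 0.09, edgeR adjusted p = 0.00363). In the main fit the mu cluster thus held a gene that fell and a gene that rose, *Gstm4*, whose call was narrow. With surrogate variables as covariates, *Gstm6* was at -0.19 (edgeR adjusted p = 0.368) and *Mgst3* had an edgeR adjusted p of 0.0677, so neither passed.

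The 13 others that were tested did not pass. *Gsta2*, which shares 49.7% of its 50-base stretches with other counted genes, had a log2 fold change of 0.58 (SE 0.35). The pi genes were at 0.36 (*Gstp2*) and -0.39 (*Gstp3*), the remaining mu genes at 0.17 (*Gstm5*) and 0.04 (*Gstm7*), and the theta gene *Gstt2* at 0.08. The tested genes of other classes were at -0.06 (*Gsto1*), -0.18 (*Gstz1*, which works in tyrosine breakdown), -0.10 (*Gstk1*) and 0.18 (*Gstcd*). *Hpgds*, a prostaglandin D2 synthase, was at 0.10, and *Ltc4s* and *Alox5ap*, both of leukotriene synthesis, were at -0.69 and -0.42.

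**Figure D4:**
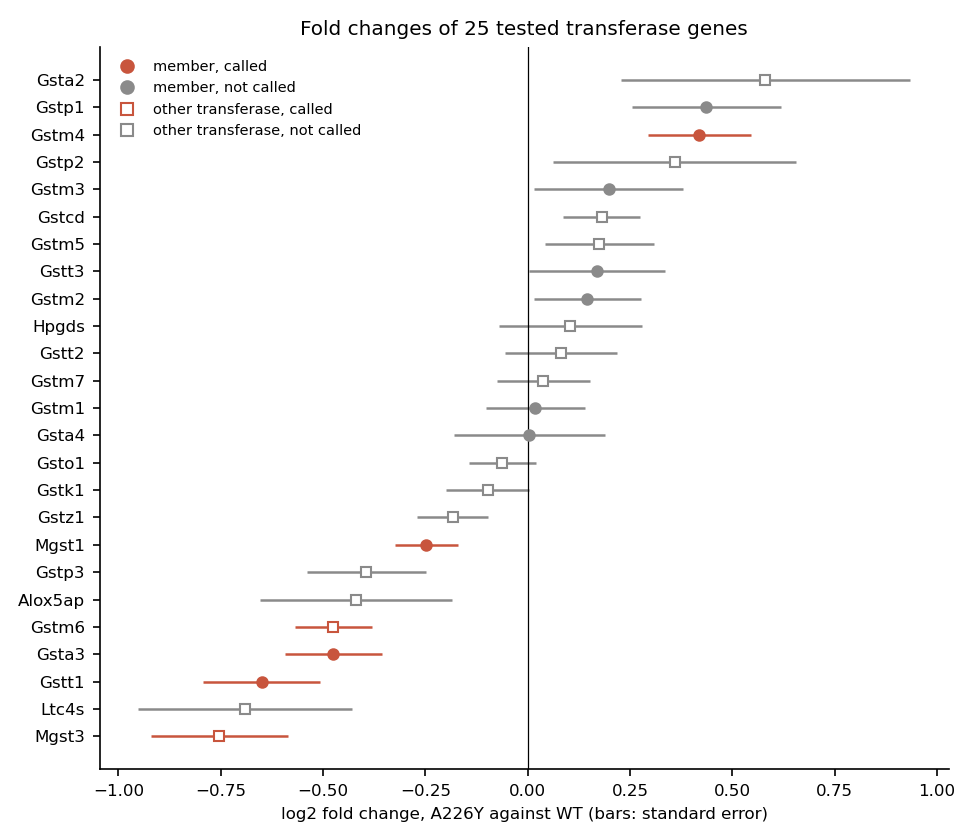
Log2 fold changes of A226Y against WT are shown with their standard errors for 25 tested transferase genes, circles for the 10 genes described and squares for the 15 others, with called genes in red. The red genes run from Mgst3 at -0.75 to Gstm4 at 0.42.

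The other steps of the glutathione pathway were read from the same fit. With the 4 surrogate variables as covariates, 0 genes of each of these lists were called. The mercapturate pathway trims glutathione conjugates and acetylates the cysteine that remains. Its list, written like the others with earlier results of these data known, also holds enzymes outside these steps, such as aminoacylases. Of the 14 tested genes of this list, 6 (42.9%) were lower, against 7.03% of all genes, and 0 were higher. An unadjusted edgeR p under 0.05 was found for 8 of the 14 (57.1%, against 29.6% of all genes), with a list median of -0.09 on the log2 scale. *Nat8f1*, of the N-acetyltransferase family of this pathway, fell by 0.79 in log2 units (76.0 ± 15.8 to 44.1 ± 12.5 CPM, edgeR adjusted p = 0.00459). *Ggt7*, of the gamma-glutamyltransferase family, fell by 0.57 (edgeR adjusted p = 0.00645), and the aminoacylases *Acy3* and *Acy1* fell by 0.48 and 0.38 (edgeR adjusted p = 0.00485 and 0.00607). The other two that fell were *Kyat3* (-0.35) and *Anpep* (-0.31). *Nat8* and *Dpep1* had positive log2 fold changes of 0.91 and 1.01 that did not pass (edgeR adjusted p = 0.0505 and 0.0559). Both were at very low levels, with means of 0.582 (WT) and 1.09 CPM (A226Y) for *Nat8* and 0.478 and 0.969 CPM for *Dpep1*.

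Of 20 tested genes of glutathione synthesis and reduction, 1 was higher and 2 were lower (15% called, near the 14.3% of all genes), with a median log2 fold change of -0.11. An unadjusted edgeR p under 0.05 was found for 9 of the 20 (45%, against 29.6% of all genes). *Cth*, which makes cysteine from cystathionine, rose from 467 ± 135 CPM (SD, n = 8) to 818 ± 263 CPM (SD, n = 10), a log2 fold change of 0.81 (edgeR adjusted p = 0.0139). *Chac1*, which degrades glutathione, fell by 1.10 in log2 units (edgeR adjusted p = 0.0234) and *Idh1*, a source of NADPH, fell by 0.38 (edgeR adjusted p = 0.0338). The rate-limiting ligase of glutathione synthesis had log2 fold changes of -0.10 (*Gclc*) and -0.18 (*Gclm*), neither of which passed. The count of this list was 1 without WT mouse 13 or WT mouse 33, 5 without A226Y mouse 29 and 6 without WT mouse 4 or WT mouse 6. Of 9 tested genes of conjugate export, 1 was lower (11.1% called, against 14.3% of all genes), with a median of 0.02. This was *Abcc6* (-0.44, edgeR adjusted p = 0.00152), while *Abcc2*, the main exporter of conjugates into bile, was at 0.14.

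Of 16 tested regulators of transferase genes, 0 were higher and 2 lower (12.5% called, against 14.3% of all genes). In this list 4 genes (25%) had an unadjusted edgeR p under 0.05, as did 29.6% of all genes, and the median of the list was -0.04 on the log2 scale. *Nr1i3*, which encodes CAR, fell by 0.46 (edgeR adjusted p = 0.0321) and *Arnt*, the partner of AhR, fell by 0.30 (edgeR adjusted p = 0.00766), and the count was 1 when any one of WT mice 24, 28 and 33 or A226Y mice 7, 11 and 15 was left out. *Nfe2l2*, which encodes NRF2, was at -0.06 and *Keap1*, its inhibitor, at -0.04. Of 19 tested genes known to respond to NRF2, AhR, CAR or PXR, 2 were higher and 2 were lower (10.5% in each direction, against 7.27% and 7.03% of all genes), with a median of -0.03. *Cyp2b10*, a CAR target, rose by 1.45 (8.14 ± 4.01 to 22.3 ± 9.28 CPM, edgeR adjusted p = 0.00399), and *Srxn1*, an NRF2 target, rose by 0.42 (edgeR adjusted p = 0.0204). *Cyp1a2*, an AhR target that is also a pericentral marker, fell by 1.03 (edgeR adjusted p = 0.00601), and *Nqo2* fell by 0.45 (edgeR adjusted p = 0.0193). *Nqo1*, a classical NRF2 target, was at 0.17 and did not pass.

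**Figure D5:**
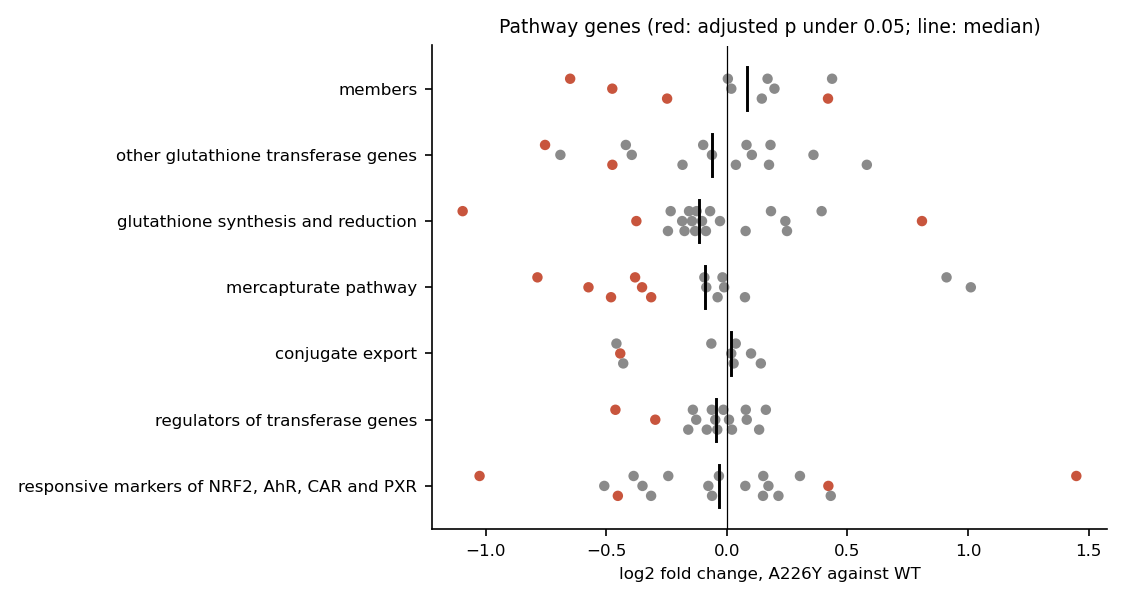
Log2 fold changes of A226Y against WT are plotted for each tested gene of 7 lists, with called genes in red and the median of a list as a black line. The mercapturate pathway has 6 red points, all below 0, and the medians of all lists lie between -0.11 and 0.08.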

How the data were processed

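Liver RNA of 10 A226Y and 8 WT mice was analysed, 1 library per mouse, grouped by the genotype in the labels. The deposited values are whole-number counts per Ensembl gene, not normalized. The submitters' processing notes name bcl2fastq, fastp, STAR, featureCounts, MultiQC and GRCm38, while the methods name RSEM and another mouse build, so which tool the authors used for these counts, and whether strand was used, is not settled here. RNA was extracted with TRIzol and read as single 50-base reads.

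Identifiers were matched to GENCODE M21 (22214 matched, 310 not). A gene was kept where 50% or more of the mice of either genotype had 10 counts or more, and was tested with edgeR 4.0.16 (R 4.3.3) with TMM scaling, the two-sided quasi-likelihood test and Benjamini-Hochberg adjustment. The standard error is the size of the log2 fold change divided by the square root of F. Log2 CPM used a prior count of 2. Members and lists were chosen with earlier results of these data known. Named were the 10 members, all tested other transferases, *Rps2* and up to 4 called genes per direction of each list, and others with values of interest, which were chosen after their values were seen. Alternatives were other scalings, filters and tests (DESeq2 1.42.0, limma 3.58.1), surrogate variables (sva 3.50.0), offsets on length or GC content and leaving out mice. GC content was that of the longest transcript of a gene. No 2 libraries of a genotype agreed within sampling noise (chi-square per degree of freedom of at least 20.1), so each was counted as a separate mouse.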

Additional observations from a re-analysis of the deposited data

Results flagged for a closer look

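Single mice were set against the other mice of their genotype for the 25 tested transferase genes (50 groups of values), where chance marks about 1 group in 20. In 7 groups 1 mouse lay far from the rest, and in each it was A226Y mouse 29 or WT mouse 33. None of the 10 genes described was among them.

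In A226Y mouse 29, *Gstz1* was lowest at 455.5 CPM against 647 CPM in the next mouse, *Gstk1* was lowest at 85.7 CPM against 114 CPM, *Gstp2* was highest at 1.53 CPM against 1.02 CPM and *Alox5ap* was highest at 7.82 CPM against 3.86 CPM. In WT mouse 33, *Gstt2* was lowest at 42.6 CPM against 76.0 CPM, *Gsto1* was lowest at 110.8 CPM against 141 CPM and *Alox5ap* was highest at 7.41 CPM against 4.33 CPM.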

How the results depend on the processing

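No paired analysis was possible because the genotypes share no replicate numbers. Surrogate variables left 50 genes called, with 0 of the 10 genes higher, 0 lower and 0 called in each other list; the cause was not tested. *Gstm1* was then at -0.0381. Called genes of glutathione synthesis numbered 6 in DESeq2, and of the regulators 1 with the GC offset. Without A226Y mouse 29 and WT mouse 33, conjugate export had 2, *Gsta4* was at -0.0503 and *Gstm1* at -0.0296. Upper quartile scaling put *Gsta4* at -0.0012. Library size scaling alone made 67.95% of all calls higher, against 50.84% with TMM, and moved the median of all genes to 0.04.

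Leaving out 1 mouse gave 1255 (without WT mouse 14) to 2560 genes called, 0 to 2 of the 10 genes higher (0 without the mice named for *Gstm4*, 2 without WT mouse 6) and 2 to 3 lower. The other transferases had 2 to 4 called (4 without WT mouse 6), glutathione synthesis 1 to 6, the mercapturate pathway 4 to 8, the regulators 1 to 2, conjugate export 1 and the responsive genes 4. *Gsta4* moved between -0.0846 and 0.102 and *Gstm1* between -0.046 and 0.0959. *Gstt3* lay between 0.0914 (without WT mouse 6) and 0.28 (without WT mouse 13), *Gstm2* between 0.0834 (without WT mouse 21) and 0.21 (without WT mouse 13) and *Gstm3* between 0.12 (without A226Y mouse 29) and 0.28 (without WT mouse 13), and none of these 3 passed. *Gsta3* (-0.51 to -0.40) and *Gstt1* (-0.72 to -0.58) stayed called without any 1 mouse, with edgeR adjusted p-values up to 0.0284 and 0.0171.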

Other observations

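The untested transferase genes, 6 in number, were counted at levels too low to be tested. *Gsta1* had 1 to 19 counts per library, *Gsto2* 0 to 27, *Mgst2* 0 to 14, *Ptges* 1 to 11, *Gm10639* 0 to 3 and *Gstt4* 0 to 2. *Gsta1* shares 53.9% of its 50-base stretches with other counted genes, *Gsta2* among them, and 90.5% with any annotated gene, counted or not.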
